A study of Homo sapiens with 6 samples.

Results

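SPARC and 9 further genes for matricellular and related matrix proteins were described in COV434 cells with and without BRG1. The 10 genes are SPARC, SPARCL1, SPOCK1, SMOC1 and SMOC2 of the SPARC family, the thrombospondins THBS1 and THBS2, tenascin-C (TNC), periostin (POSTN) and fibronectin (FN1). They were taken by symbol, and all 10 were found among the 19899 genes of the deposited table. The set was chosen by the normalised counts of SPARC, whose higher level in BRG1 samples had been seen in these data, and by membership in its protein class. The values of the 10 genes are therefore given as a description, and no test of them is offered as evidence.

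COV434, a long-cultured line from the ovary, is treated by the study as a model of SCCOHT, a small cell ovarian cancer that lacks the SWI/SNF ATPase BRG1 (gene SMARCA4). Cells received either the vector pCDNA3-neo (Control, n = 3) or the BRG1 plasmid PBJ5-BRG1 (BRG1, n = 3), both mixed with pBABE-puro. Puromycin at 2 to 3 µg/ml was added 24 hours later and the pellets were taken after 3 days on the drug. Both groups therefore share the transfection, the resistance plasmid and the selection, and the BRG1 in these cells comes from a plasmid and not from its own locus. The values are averages over a pool of cells, so a higher share of cells with a transcript and more transcript per cell cannot be told apart.

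Libraries held between 29699741 and 63613710 estimated counts, and BRG1 sample 3 was the shallowest. SMARCA4 stood at 1439, 1675 and 1537 normalised counts in Control samples and at 108655, 79075 and 78589 in BRG1 samples 1 to 3, plasmid transcripts included. The lineage regulators SALL4 and LIN28B, taken here as markers of these tumours, were present in all 6 samples, and LIN28A lay between 0 and 2.49 normalised counts. SMARCA2, the other ATPase, which the paper describes as silenced in SCCOHT, lay between 3.61 and 35.7. The granulosa cell markers FOXL2 and AMHR2 held 3 counts or fewer in each sample. The 9 granulosa markers summed to between 398.8 and 534.4 normalised counts in Control and between 953.9 and 2075 in BRG1 samples. Of them 3 were called higher (INHBA, CYP19A1 and CYP11A1, the last at 0 in Control). Over all samples AMH lay between 226.7 and 455.3, INHA between 35.7 and 47.3, and FSHR and NR5A1 between 0 and 2.94. Markers of other cell types were summed in the same way. The 10 fibroblast markers summed to between 6055 and 10064 in Control and between 5030 and 10627 in BRG1 samples. Of them 2 were called higher, PDGFRA and PDGFRB, from low Control means of 6.43 and 3.97. The rest were not called by the main test. COL1A1, COL1A2, THY1 and FAP had positive log2 fold changes. LUM, FBLN1, DCN and COL3A1, the most abundant marker, had negative ones (-0.44, -0.39, -0.30 and -0.04). The 8 endothelial markers summed to between 1751 and 2681 in Control and between 6537 and 6955 in BRG1 samples, with 4 called higher (CDH5, VWF, TIE1 and TEK), although PECAM1 stayed between 0.543 and 36.8. The 6 smooth muscle and pericyte markers summed to between 35706 and 50243 and between 50310 and 90220, with 3 called higher (TAGLN, RGS5 and DES). TAGLN was the largest part, with means of 33263 in Control and 59836 in BRG1 samples, and edgeR did not call it (edgeR adjusted p 0.0963). ACTA2 and CNN1 (log2 fold changes 0.12 and 0.47) were not called, and MYH11 stayed between 18.4 and 56.2. The 8 leukocyte markers summed to between 1859 and 2874 and between 2436 and 3939, with 1 called higher, and CD3E held 3 counts or fewer in every sample. The part of these markers in the results below was not tested.

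Matricellular proteins are secreted into the extracellular matrix but act mainly as modulators of cell contact, growth factor activity and matrix assembly, and less as structural fibres. They are known from wound repair, development and the stroma of tumours, where they bind integrins, collagens and latent growth factors. SPARC, also called osteonectin, is a calcium- and collagen-binding protein that loosens cell adhesion, and its relatives share its calcium-binding domain. Fibronectin is a structural glycoprotein that several of the others bind.

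Promoter sequences are shown for SPARC, for THBS1, the most abundant of the 10 transcripts, and for POSTN, the one gene of the set whose BRG1 values all lay below its Control values. They come from RefSeq (GRCh38.p14) and are written 5′ to 3′ on the gene's strand, and 9 of the 10 genes had an entry (all but SPOCK1). Each of the first 3 lines stops before the first annotated exon of the gene. Capitals mark matches on either strand to TGANTCA (the site of AP-1, a transcription factor the study examined), GGAATG (the core site of the TEAD factors) and GGAGGAGG, a purine-rich repeat that was chosen after the SPARC sequence had been seen. The SPARC bases lie at chr5:151686976-151687165, minus strand, those of THBS1 at chr15:39580829-39581078, plus strand, and those of POSTN at chr13:37598845-37599018, minus strand. The last line is a short stretch next to the RefSeq start of SPARC, chr5:151686916-151686943.
SPARC: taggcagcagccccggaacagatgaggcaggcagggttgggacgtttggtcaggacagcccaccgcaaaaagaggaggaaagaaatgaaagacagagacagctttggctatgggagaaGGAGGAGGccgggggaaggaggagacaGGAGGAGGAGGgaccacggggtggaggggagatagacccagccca
THBS1: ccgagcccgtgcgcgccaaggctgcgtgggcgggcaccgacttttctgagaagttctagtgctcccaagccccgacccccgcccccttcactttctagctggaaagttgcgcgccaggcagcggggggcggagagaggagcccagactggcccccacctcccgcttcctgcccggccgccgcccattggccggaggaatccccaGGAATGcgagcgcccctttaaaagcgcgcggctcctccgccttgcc
POSTN: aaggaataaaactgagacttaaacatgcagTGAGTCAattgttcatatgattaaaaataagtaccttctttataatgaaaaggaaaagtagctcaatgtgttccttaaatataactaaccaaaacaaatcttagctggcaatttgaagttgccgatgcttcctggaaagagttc
SPARC start: aaacccctccaCATTCCcgcggtccttc

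In windows of 250 bases before and 50 after the start, TGANTCA was present in 1 of the 9 promoters, that of POSTN, where it begins 220 bases before the start. It was present in 5.78% of the 14439 promoters of genes in the table. GGAATG was found in 3 of 9, namely SPARC, THBS1 and THBS2, against 11.6% of all promoters. GGAGGAGG was found in SPARC, at 3 places that partly overlap, and in THBS2, against 12.6% of all promoters. These are matches of letters, and sites outside the windows were not searched.

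The SPARC gene (GRCh38, as for all genes here, chromosome 5, 151661096 to 151686975, minus strand, 10 exons in its reference transcript) showed the widest separation of the set. Its normalised count was 156.3, 145.7 and 166 in Control samples 1 to 3 and 38532, 20690 and 11696 in BRG1 samples 1 to 3. Every BRG1 sample lay far above every Control sample, and the Control samples were close to each other while the BRG1 samples spread widely. The means were 156 ± 10.2 and 23640 ± 13659 (SD, n = 3), and the log2 fold change was 7.25 ± 0.38 (SE). By estimated count SPARC ranked between 10774 and 10831 among the genes of a Control library, and it ranked 140, 301 and 581 in BRG1 samples 1 to 3. BRG1 samples 2 and 3 had nearly the same SMARCA4 value, yet SPARC was 20690 in the one and 11696 in the other.

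The other genes of the SPARC family did not share one pattern. SPOCK1 (chromosome 5, 136975298 to 137598379), which encodes the secreted proteoglycan testican-1, stood at 95.1, 64.3 and 36.8 normalised counts in Control and at 6273, 2405 and 1269 in BRG1 samples. Its groups did not overlap, and its log2 fold change was 5.66 ± 0.75 (SE). In both groups sample 1 was the highest and sample 3 the lowest, so that the ratio within replicate numbers was 65.9, 37.4 and 34.5.

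SPARCL1 (chromosome 4, 87473335 to 87531061), or hevin, is the closest relative of SPARC among the 10. It held 107.6, 122.1 and 110 normalised counts in Control and 129.2, 168.5 and 162.3 in BRG1 samples. All 3 BRG1 values were above the Control values, but by little, with a log2 fold change of 0.44 (standard error 0.25). In contrast to SPARC, its lowest BRG1 value was that of sample 1.

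The calcium-binding proteins SMOC1 (chromosome 14, 69854131 to 70032366) and SMOC2 (chromosome 6, 168441151 to 168673445) were near the detection limit. SMOC1 held 0.8, 0 and 2.3 estimated counts in Control and 14.3, 2.8 and 0.8 in BRG1 samples, so a value above 3 counts appeared only in BRG1 sample 1. SMOC2 held between 0 and 2.8 estimated counts in all 6 samples. No fold change is given for either, since differences of this size are not detectable at this depth.

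TNC (chromosome 9, 115019575 to 115118207, minus strand, 28 exons), a large anti-adhesive glycoprotein of remodelling tissue, stood at 1089, 945.8 and 844.5 normalised counts in Control samples. In BRG1 samples it reached 47620, 39405 and 15615. The groups did not overlap, and BRG1 sample 3 was again the lowest. The means were 959.6 ± 122.7 and 34213 ± 16622 (SD, n = 3), and the log2 fold change was 5.16 ± 0.36 (SE).

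THBS1 (chromosome 15, 39581079 to 39599466, plus strand, 22 exons) encodes thrombospondin-1, which activates latent TGF-beta and binds the receptors CD36 and CD47. It was abundant without BRG1, at 80941, 71181 and 60054 normalised counts in Control samples, and reached 180441, 134775 and 74798 in BRG1 samples. The groups overlapped, because BRG1 sample 3 lay below Control sample 1. The means were 70725 ± 10451 and 130005 ± 52983 (SD, n = 3), and the log2 fold change was 0.88 ± 0.31 (SE). Within replicate numbers the ratio was 2.23, 1.89 and 1.25, above 1 in each. Exons of FSIP1 and of the antisense gene THBS1-AS1 cover 7.58% of its exonic bases, and the libraries do not keep strand. THBS2 (chromosome 6, 169215780 to 169254050) was low, at 22.7, 5.50 and 15.6 in Control and 16.2, 35.5 and 30.7 in BRG1 samples, with overlapping groups. Its antisense gene THBS2-AS1 covers 31.2% of its exonic bases, so its value is uncertain.

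POSTN (chromosome 13, 37562583 to 37598844), the collagen-binding protein periostin, was the only one of the 10 with lower values in BRG1 samples. It held 2241, 2775 and 2756 normalised counts in Control and 1086, 1877 and 2233 in BRG1 samples. The groups did not overlap, but the highest BRG1 value, that of sample 3, nearly reached the lowest Control value, that of sample 1. The log2 fold change was -0.58 ± 0.28 (SE). BRG1 sample 1, the lowest for POSTN, was the highest for SPARC, SPOCK1, TNC and THBS1.

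FN1 (chromosome 2, 215360440 to 215436073, 46 exons) held 318.7, 523.8 and 881.6 normalised counts in Control and 1240, 978 and 877.6 in BRG1 samples. The groups touched, since Control sample 3 and BRG1 sample 3 were nearly equal. The log2 fold change was 0.84 ± 0.35 (SE), and the ratio within replicate numbers was 3.89, 1.87 and 0.995.

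**Figure D1:**
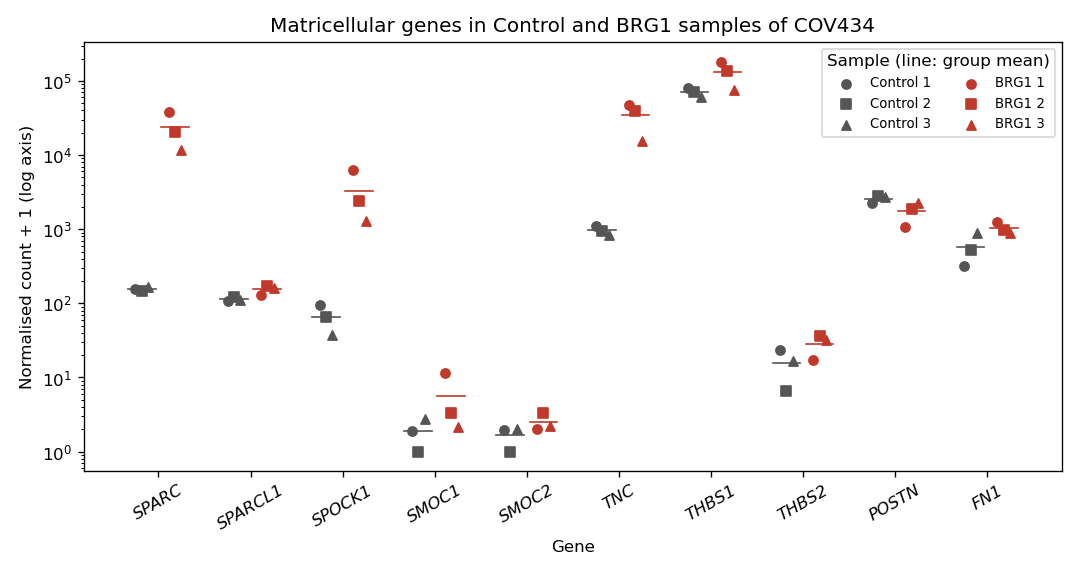
Normalised counts plus 1 (log axis) of the 10 genes in the 3 Control samples (grey) and the 3 BRG1 samples (red), with circles, squares and triangles for samples 1, 2 and 3 and lines for group means. SPARC, SPOCK1 and TNC are far apart between the groups, THBS1 is high in both and overlaps, and POSTN lies lower in BRG1 samples.

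Over all genes with a mean of at least 100 normalised counts, samples of the same number varied together. This did not hold for every gene. SPARC and FN1 were both highest in sample 3 among Control samples and lowest in sample 3 among BRG1 samples. Ratios within replicate numbers were compared as a description. For SPARC they were 247, 142 and 70.4, for TNC 43.7, 41.7 and 18.5, and for SPARCL1 1.20, 1.38 and 1.48. For POSTN they were 0.485, 0.677 and 0.810. For SPARC, SPOCK1, TNC, THBS1 and FN1 replicate 3 gave the ratio nearest to 1, and for POSTN it did so too. For SPARCL1 and THBS2 it was replicate 1 instead (1.20 and 0.716). Replicate 3 was thus nearest to 1 for genes in both directions of difference, but not for every gene plotted. BRG1 sample 3 was also the library with the fewest counts, whose part in this was not tested.

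**Figure D2:**
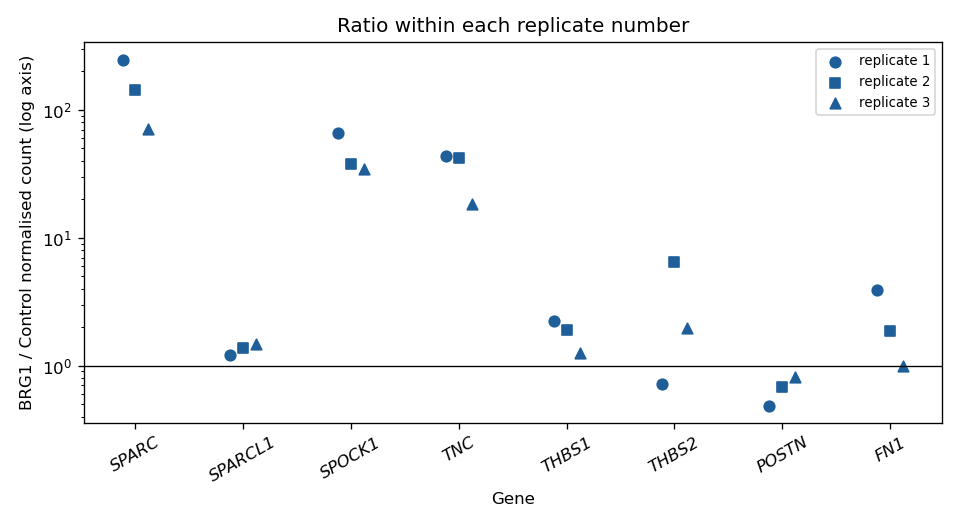
Ratio of the BRG1 to the Control normalised count within replicate numbers 1, 2 and 3 (log axis, line at 1) for the 8 genes above the detection limit. SPARC spans 70.4 to 247, the ratios of POSTN are all below 1, and those of THBS2 fall on both sides of 1.

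DESeq2, fitted over all genes, called 4 of the 10 genes higher with BRG1 (SPARC, SPOCK1, TNC and THBS1) at an adjusted p under 0.05. Of the 15991 genes tested, 11.0% were called higher and 1.84% lower. Since the set was drawn up from this contrast, nothing is read from its count, its median or the calls of its genes below. The median log2 fold change was 0.88 over the 9 genes tested and -0.01 over all genes. It was also 0.88 with SMOC1 at its bound against 3 counts per Control library, and placing such genes at their bound left the medians of the related lists given below as they are. DESeq2 called 0 of the 10 lower, while 1 (POSTN) had an unadjusted p under 0.05. By edgeR 3 were higher (all but THBS1) and 0 lower, where 9.57% and 1.02% of the genes tested were so called. When the replicate numbers were blocked, DESeq2 and edgeR each called the same 4 higher (background 13.4% and 13.7%) and POSTN lower (background 6.62% and 5.68%). The calls of SPARC, SPOCK1 and TNC held in each of the 6 fits that left out a sample. THBS1 kept its call only without BRG1 replicate 3, where its log2 fold change was 1.16, against 0.57 without BRG1 replicate 1. Its log2 fold change was 0.98, 0.88 and 0.77 without Control replicate 1, 2 or 3 and 0.85 without BRG1 replicate 2. POSTN was called lower without BRG1 replicate 3 (log2 fold change -0.81), and FN1 was called higher without Control replicate 3 (log2 fold change 1.29). In 4 of the 10 genes every BRG1 sample lay above every Control sample, as in 15.5% of the 18096 genes with a count, and in 1 every BRG1 sample lay below, as in 8.83%.

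Levels were compared between genes as normalised counts per kilobase of the reference transcript. In Control cells THBS1 led with 9080 ± 1342 normalised counts per kilobase (SD, n = 3), followed by POSTN with 784.8 ± 91.8. TNC (112.9 ± 14.5), FN1 (68.5 ± 34.0), SPARC (45.2 ± 2.94) and SPARCL1 (40.8 ± 2.80) came next, and each of these overlapped its neighbour in the order. SPOCK1 was at 13.6 ± 6.05 and THBS2 at 2.56 ± 1.52.

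In BRG1 cells THBS1 was still first at 16691 ± 6802 normalised counts per kilobase, and SPARC moved from the fifth to the second place at 6850 ± 3958. TNC came next at 4025 ± 1956. Samples of THBS1 overlapped those of SPARC, and those of SPARC overlapped those of TNC. SPOCK1 (687.3 ± 543.8) and POSTN (524.7 ± 177.9) overlapped too, and FN1 (123 ± 22.3) and SPARCL1 (55.2 ± 7.61) followed without overlap. Within each BRG1 library THBS1 was above SPARC and SPARC above TNC, while the order of SPOCK1 and POSTN differed between libraries. SPARC and SPARCL1, nearly level per kilobase without BRG1, were thus far apart with it. The 10 genes together took between 0.139% and 0.184% of the counts of a Control library and 0.597%, 0.443% and 0.241% of BRG1 libraries 1 to 3.

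The genes whose values ran most like those of SPARC were found by Pearson correlation of variance-stabilised values over the 6 samples, among 11684 genes with a mean of at least 100 normalised counts. The nearest were IGFBP4 (r = 0.9997), MX2 (0.9996), TNFSF10 (0.9996), CYP4B1 (0.9995) and AJAP1 (0.9994). MX2 and TNFSF10 were at 0 in every Control sample, unlike SPARC. IGFBP4, which binds insulin-like growth factors, held 234.1, 185.6 and 210.1 normalised counts in Control and 27110, 17034 and 9814 in BRG1 samples. Within the set TNC had r = 0.996 (place 94), SPOCK1 0.984 (place 304), THBS1 0.806 and POSTN -0.797. The 6 points form 2 groups, which alone raises r for any gene that differs between them.

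The related lists below were drawn up with earlier results of these data known, so their counts are descriptions and not independent evidence. Other matricellular genes were listed by protein class, and their BRG1 and Control values were tested. Of 19 such genes, 15 had an adjusted p, and DESeq2 called 6 higher and 0 lower. None (0) was lower even at an unadjusted p under 0.05. By edgeR 5 were higher and 0 lower. Here and for the lists that follow, the background over all genes tested is 11.0% called higher (edgeR 9.57%) and 1.84% called lower (edgeR 1.02%). The list had a median log2 fold change of 1.15. FSTL1, a secreted relative of SPARC, rose from 1909, 1314 and 1611 to 74300, 37991 and 20766 normalised counts, by 4.78 ± 0.40 (SE) on the log2 scale (DESeq2 adjusted p 4.1e-31). TGFBI, the closest relative of periostin, rose from 8.70 ± 4.67 to 420.1 ± 347.2 (SD, n = 3), by 5.58 on the log2 scale (DESeq2 adjusted p 7.9e-13), whereas POSTN itself had lower values. CTGF, a matricellular protein of the CCN family, rose by 2.82 on the log2 scale (DESeq2 adjusted p 5.4e-08), and FSTL3 by 1.78 (DESeq2 adjusted p 4.7e-08). TNXB, which shares sequence with a pseudogene and is uncertain for that reason, rose by 2.68 on that scale (DESeq2 adjusted p 2.0e-12).

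WISP1 was at 0 in every Control sample and at 6.79, 8.71 and 26.7 normalised counts in BRG1 samples, at least 4.47-fold higher against a floor of 3 counts per library. Its call was lost without BRG1 replicate 3 (DESeq2 adjusted p 0.115). The replicate block added 2 calls, CYR61 and SPP1, both chosen here after their values were seen. CYR61 held 19375, 9223 and 3211 normalised counts in Control and 66981, 31040 and 8494 in BRG1 samples. These groups overlapped (DESeq2 adjusted p 0.288), but the ratio within replicate numbers was 3.46, 3.37 and 2.65 (with the block, DESeq2 adjusted p 1.9e-47). SPP1, osteopontin, differed by 0.48 on the log2 scale (DESeq2 adjusted p 0.112, and 0.00540 with the block).

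Receptors for these proteins were examined next. Of 21 genes, 8 were called higher and 0 lower by DESeq2, against 7 and 0 by edgeR. At an unadjusted p under 0.05, 0 of them were lower. The list had a median log2 fold change of 0.54. ITGB3, the integrin beta chain that pairs with alpha V to bind vitronectin, fibronectin and thrombospondin, rose from 39.4, 37.0 and 51.5 to 1263, 867.9 and 767.1 normalised counts, by 4.49 ± 0.29 (SE) on the log2 scale (DESeq2 adjusted p 4.9e-52). ITGA3 rose by 3.26 on the log2 scale (DESeq2 adjusted p 6.0e-20), CD47, a thrombospondin receptor, by 2.31 (DESeq2 adjusted p 6.4e-13), ITGA2 by 1.57 (DESeq2 adjusted p 8.3e-08) and ITGB5 by 1.40 (DESeq2 adjusted p 5.2e-06). ITGAV rose by 0.86 on the log2 scale (DESeq2 adjusted p 0.00579), and lost its call without BRG1 replicate 1 or 2 (DESeq2 adjusted p 0.0665 and 0.0568). ITGB1, the common beta chain, was at 28177 ± 872.6 and 27362 ± 2450 normalised counts (SD, n = 3), within the spread between replicates.

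Among low receptors ITGB8 rose by 3.93 on the log2 scale (DESeq2 adjusted p 2.0e-05). SDC4, a heparan sulphate proteoglycan, held 0, 1.18 and 0 normalised counts in Control and 22.4, 11.6 and 1.49 in BRG1 samples (DESeq2 adjusted p 0.0356). Its call was lost with the replicate block (DESeq2 adjusted p 0.0822), and without Control replicate 1 or 3 (0.147 and 0.202) or BRG1 replicate 1 or 2 (0.458 and 0.206).

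Structural partners in the matrix were compared in the same way. Of 24 matrix glycoproteins and proteoglycans, 20 had an adjusted p, and DESeq2 and edgeR each called 9 higher and 0 lower, with 1 lower at an unadjusted p under 0.05. The list had a median log2 fold change of 1.78. NID2, a basement membrane linker, rose from 15.9 ± 2.93 to 2702 ± 1281 normalised counts (SD, n = 3), by 7.40 on the log2 scale (DESeq2 adjusted p 2.5e-68). EFEMP1, VTN, MFAP5, ECM1 and MATN2 rose by 4.42, 4.32, 4.06, 3.96 and 2.40 on the log2 scale, with DESeq2 adjusted p-values from 3.0e-19 (MFAP5) to 3.3e-11 (MATN2). Of 10 collagen genes 3 were called higher and 0 lower by either tool, with 1 lower at an unadjusted p under 0.05 and a median log2 fold change of 0.67. They were the basement membrane chains COL4A1 and COL4A2, with log2 fold changes of 6.99 and 6.03 (DESeq2 adjusted p 4.2e-49 and 3.9e-30), and COL5A1 with 2.04 (DESeq2 adjusted p 4.5e-06). COL1A1, COL1A2 and COL3A1, fibrillar collagens that SPARC binds, had log2 fold changes of 0.91, 0.43 and -0.04 with overlapping groups.

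Of 23 genes for proteases, cross-linking enzymes and the TGF-beta system, DESeq2 and edgeR each called 10 higher and 0 lower, with 0 lower at an unadjusted p under 0.05. The list had a median log2 fold change of 0.70. TGM2, a transglutaminase that cross-links fibronectin, rose from 219, 119 and 96.2 to 55184, 25701 and 11802 normalised counts, by 7.74 ± 0.71 (SE) on the log2 scale (DESeq2 adjusted p 4.3e-26). MMP2, a gelatinase, rose by 5.75 on that scale (DESeq2 adjusted p 1.0e-60), BMP1, which trims procollagens, by 2.89 (DESeq2 adjusted p 5.0e-20), the collagen cross-linker LOXL2 by 2.29 (DESeq2 adjusted p 1.8e-14) and LTBP2 by 1.31 (DESeq2 adjusted p 0.00188). TGFB1 had a log2 fold change of -0.08, within the spread between replicates. TGFB2 rose from 0, 1.60 and 4.12 to 22.7, 14.7 and 14.2 normalised counts (DESeq2 adjusted p 0.0186) and ADAMTS4 from 0, 4.09 and 0.662 to 13.6, 11.7 and 15.6 (DESeq2 adjusted p 0.0385). Each of these low genes lost its call in 5 of the 6 fits that left out a sample, at DESeq2 adjusted p-values up to 0.245 for TGFB2 (without BRG1 replicate 1) and 0.250 for ADAMTS4 (without BRG1 replicate 1), and the block ended the call of ADAMTS4 (DESeq2 adjusted p 0.0680).

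**Figure D3:**
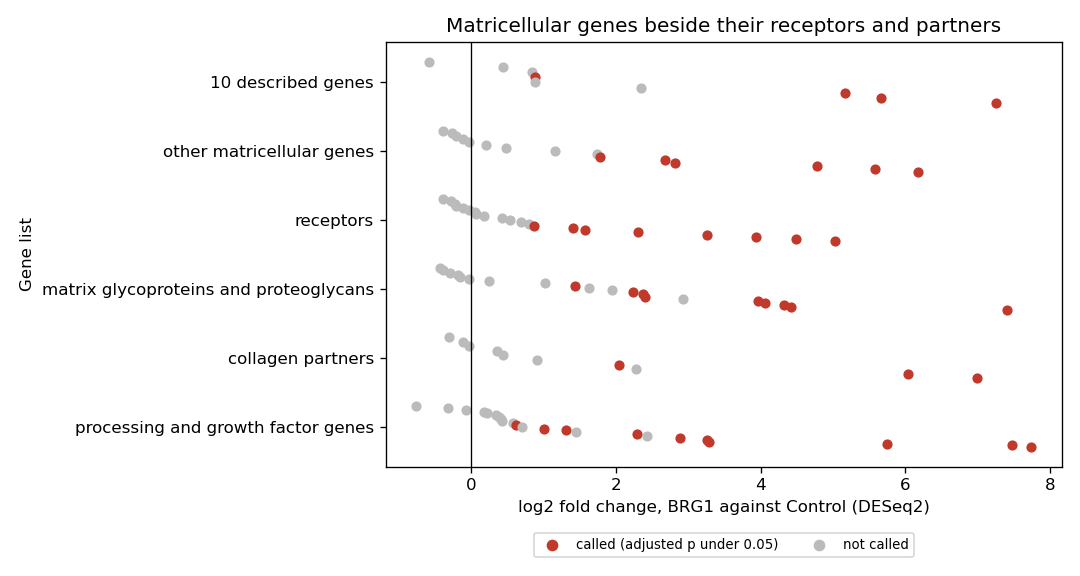
Fitted log2 fold changes of BRG1 against Control (DESeq2) for the genes with an adjusted p in the described set and in the 5 lists of related genes, 1 point per gene, red where the adjusted p was under 0.05. Each list holds genes near 0 and genes with log2 fold changes above 2, and no red point lies below 0. The fitted values of genes near 0 counts in Control, such as SMOC1, WISP1 and SDC4, depend on the fit and are not fold changes of the text.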

How the data were processed

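RNA-seq of COV434 cells was analysed in 3 Control and 3 BRG1 samples. Libraries made with an mRNA kit that does not mark strand were read as pairs of 78 bases from 500 ng of RNA. The authors aligned reads with STAR (2.5.3a), quantified transcripts with Salmon (0.8.2) on GENCODE annotation of hg38 and summed them with tximport, and they deposited estimated counts per gene (lengthScaledTPM), which need not be whole. Here these were rounded to whole numbers. The main test was the DESeq2 (1.42.0) Wald test in R 4.3.3, with median-ratio size factors and no covariate, as the study's methods name DESeq2. Adjusted p-values (Benjamini-Hochberg) cover all genes tested, and calls were made at 0.05. The edgeR (4.0.16) quasi-likelihood test with TMM factors was an alternative. Both were tested on simulated data in which few genes were changed and samples were not paired. There the false share of DESeq2 calls was far above the set threshold and that of edgeR was near it. These shares need not carry over to the present data, where more genes were called and samples are paired. For this reason edgeR counts stand beside those of DESeq2 for the gene sets. The marker calls and nearly all p-values of single genes are from DESeq2 alone, and those of edgeR were often larger. The edgeR adjusted p was 0.0446 for ITGAV and 0.0460 for LTBP2, and edgeR did not test WISP1, SDC4 or CYP11A1.

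Further alternatives were the replicate block, TMM factors in DESeq2, a filter of 10 counts in 3 samples, an adjusted p under 0.01 and leaving out each sample. Replicate numbers pair the samples: deviations from the group means of same-numbered samples correlated at 0.565, 0.604 and 0.638 over 11685 genes. The series describes 3 biological replicates. Normalised counts are estimated counts divided by size factors. The members and lists were chosen with earlier results of these data known. In each related list the text names up to 6 called genes whose mean normalised count reached 100 and up to 2 under it, by size of change, and the 5 genes most like SPARC. A gene that this rule names is not reported here. Coordinates and lengths are from GENCODE release 44 (GRCh38), whose gene models may differ from those of the authors. Totals of 29699741 to 63613710 set the counting error.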

Additional observations from a re-analysis of the deposited data

How the results depend on the processing

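The number of the 10 described genes called higher (4) and the called-higher counts of the 5 related lists stayed within 1.5 times in each alternative run, and no alternative changed the sign of the log2 fold change of SPARC, SPOCK1, TNC, THBS1, POSTN or FN1. Counts called lower, which were 0, moved. With the replicate block DESeq2 called 1 described gene (POSTN), 1 matrix gene (FBLN1), 1 collagen gene (COL6A2) and 1 processing gene (LTBP4) lower, and edgeR with the block called 1 described gene and 1 collagen gene lower. When each sample was left out in turn, the described genes and the matrix genes called lower ran from 0 to 1, in both cases 1 without BRG1 replicate 3. Over all genes the block moved the share called lower from 1.84% to 6.62% by DESeq2 and from 1.02% to 5.68% by edgeR. Pairing moved no other count of the described genes or related lists by over 1.5 times. On the scale of log2(normalised count + 1), only 1 of the 5 genes most like SPARC (IGFBP4) was also among the 5 nearest, so the order of these near-equal correlations depends on the scale. The cause was not tested for any of these. With 3 samples a group, genes at or near 3 counts per library, such as SMOC2 and, outside BRG1 sample 1, SMOC1, are limited by depth.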
